A study of Papio hamadryas with 160 samples.

Results

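The miR-181 family was followed across blood mononuclear cells and 14 brain regions of 10 baboons (Papio hamadryas). Every row of the deposited expression table whose name begins with hsa-miR-181a-, hsa-miR-181b-, hsa-miR-181c- or hsa-miR-181d- was taken as a member, which gave 8 of the 362 miRNAs listed. These were hsa-miR-181a-5p, hsa-miR-181a-3p, hsa-miR-181a-2-3p, hsa-miR-181b-5p, hsa-miR-181b-3p, hsa-miR-181c-5p, hsa-miR-181c-3p and hsa-miR-181d-5p. Members were taken by name. The study measured small RNA by sequencing in peripheral blood mononuclear cells (PBMC) and in post-mortem brain, to learn how far blood reflects the brain.

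Group A held 4 animals (A1 to A4), all female and euthanized with pentobarbital, with PBMC and 7 regions: amygdala (AMG), hypothalamus at the paraventricular nucleus (PVN), dorsomedial prefrontal cortex (dmPFC), dorsal anterior cingulate cortex (dACC), lateral and medial orbitofrontal cortex (lOFC and mOFC) and posterior cingulate cortex (PCC). Group B consisted of 6 animals (B1 to B6), 5 males, older on average than Group A, and 1 younger female, exsanguinated under anesthesia, with PBMC and 7 other regions: hippocampus (HC), lateral cerebellum (CB), dorsolateral prefrontal cortex (dlPFC), motor cortex (MC), entorhinal cortex (EC), posterior parietal cortex (PPC) and occipital cortex at the calcarine sulcus (OC). The animals came from a primate colony and had taken part in various earlier research studies; those of Group B served as controls in a pregnancy study and were moved to another site before euthanasia. PBMC were frozen in medium with DMSO before extraction while brain was flash-frozen. Regions, sex, age, euthanasia, freezing, earlier study and site differ between the groups and cannot be told apart, so the groups were analyzed separately. Exceptions were a test of the blood-brain difference between the groups, and the ratios, which were also tested over all 10 animals together. Values were available for 76 libraries; AMG in A4, CB in B2, MC in B4 and OC in B6 were without values and were not analyzed here.

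The mature miRNAs of this family are cut from hairpin precursors. The 5p arms of miR-181a, b, c and d are the guide strands that are loaded into the silencing complex, and they share the seed that pairs with target mRNAs. The 3p arms come from the other strand of the same hairpins and are usually degraded. In humans, miR-181a and miR-181b are made from paired hairpins at separate loci, and miR-181c and miR-181d from a further locus on another chromosome. miR-181a-3p is released from the miR-181a-1 hairpin and miR-181a-2-3p from the miR-181a-2 hairpin, whereas both hairpins give the same miR-181a-5p. In mouse T cells miR-181a raises the sensitivity of the T cell receptor by lowering phosphatases of its pathway, and the family is also abundant in brain.

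Levels are given as RPM, a read count divided by the reads of the library that mapped to miRNAs, in units of 1e+06 reads. Reads were assigned to human sequences with 0 mismatches, and the 5p arms resemble one another closely, so that a read with a sequencing error could be lost or, rarely, counted for another member; how much this moved was not tested. The libraries held 707976 to 1208338 mapped miRNA reads in PBMC of Group B, 1584759 to 4899923 in PBMC of Group A and 1425622 to 7036373 in brain. A level of 3 reads, taken as the floor for a count of 0, corresponded to 2.48 to 4.24 RPM in PBMC of Group B and to 0.426 to 2.10 RPM in brain of that group. Of the marker miRNAs used to check the tissues, the 4 leukocyte miRNAs (miR-142-3p, miR-142-5p, miR-150-5p and miR-223-3p) summed to 61283 to 142646 RPM in PBMC and to 209.9 to 841 RPM in brain, and the 5 neuronal miRNAs (miR-124-3p, miR-128-3p, miR-9-5p, miR-137 and miR-138-5p) to 581 to 1042 RPM in PBMC and to 32058 to 71415 RPM in brain. Of single markers, miR-137 of neurons and miR-219a-2-3p of oligodendrocytes stood at 0 in at least 1 PBMC library of each group. They were no higher than 1.15 and 3.46 RPM in the others. The other 4 neuronal miRNAs were above 0 in every PBMC library. miR-137 was also at 0 to 0.99 RPM in CB, where the other 4 neuronal miRNAs were present. The 4 red cell miRNAs (miR-451a, miR-486-5p, miR-144-3p and miR-144-5p) summed to 7236 to 41386 RPM in PBMC, nearly all of it miR-486-5p. In PBMC of Group B the means of miR-451a and miR-144-3p, 127 and 20.3 RPM, were below those of every brain region of the group, 222 to 384 and 27.1 to 48.5 RPM, while in PBMC of Group A they were 476 and 58.8 RPM, above the brain means of 182 to 344 and 26.4 to 40.7 RPM. The mOFC of A4 was low in miR-181a, miR-181b and oligodendrocyte miRNAs, and the main comparisons that used it were also run without it, a choice made after seeing its values.

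miR-181a-5p made up most of the family in every tissue. It was the highest or second highest of the 362 miRNAs in every brain library outside the CB, where its rank was 3 to 6, and it ranked 2 to 6 in PBMC of Group A and 5 to 9 in PBMC of Group B. The 8 members together took 9.78 ± 1.34% of the mapped miRNA reads in brain of Group A and 8.56 ± 0.384% in brain of Group B (SD of animal means, n = 4 and 6). In PBMC they took 4.71 ± 0.716% and 3.64 ± 0.371% (SD, n = 4 and 6). Within the family, miR-181a-5p accounted for 85.9 ± 0.772% of reads in brain and 95.1 ± 0.856% in PBMC of Group A (SD, n = 4), and for 86.2 ± 0.909% and 94.6 ± 0.443% in Group B (SD, n = 6). The share of miR-181c-5p was 5.96 ± 1.18% in brain and 0.582 ± 0.160% in PBMC of Group A (SD, n = 4), and that of all 3p arms 1.44 ± 0.151% and 1.22 ± 0.271%. The rarest member was miR-181b-3p, with tissue means of 2.03 to 10.8 RPM and as few as 2 to 8 reads in PBMC libraries of Group B. Ligation to adapters favors some sequences, so levels of different members are comparable only roughly, while the ratio of a pair of members can be compared between tissues.

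**Figure D1:**
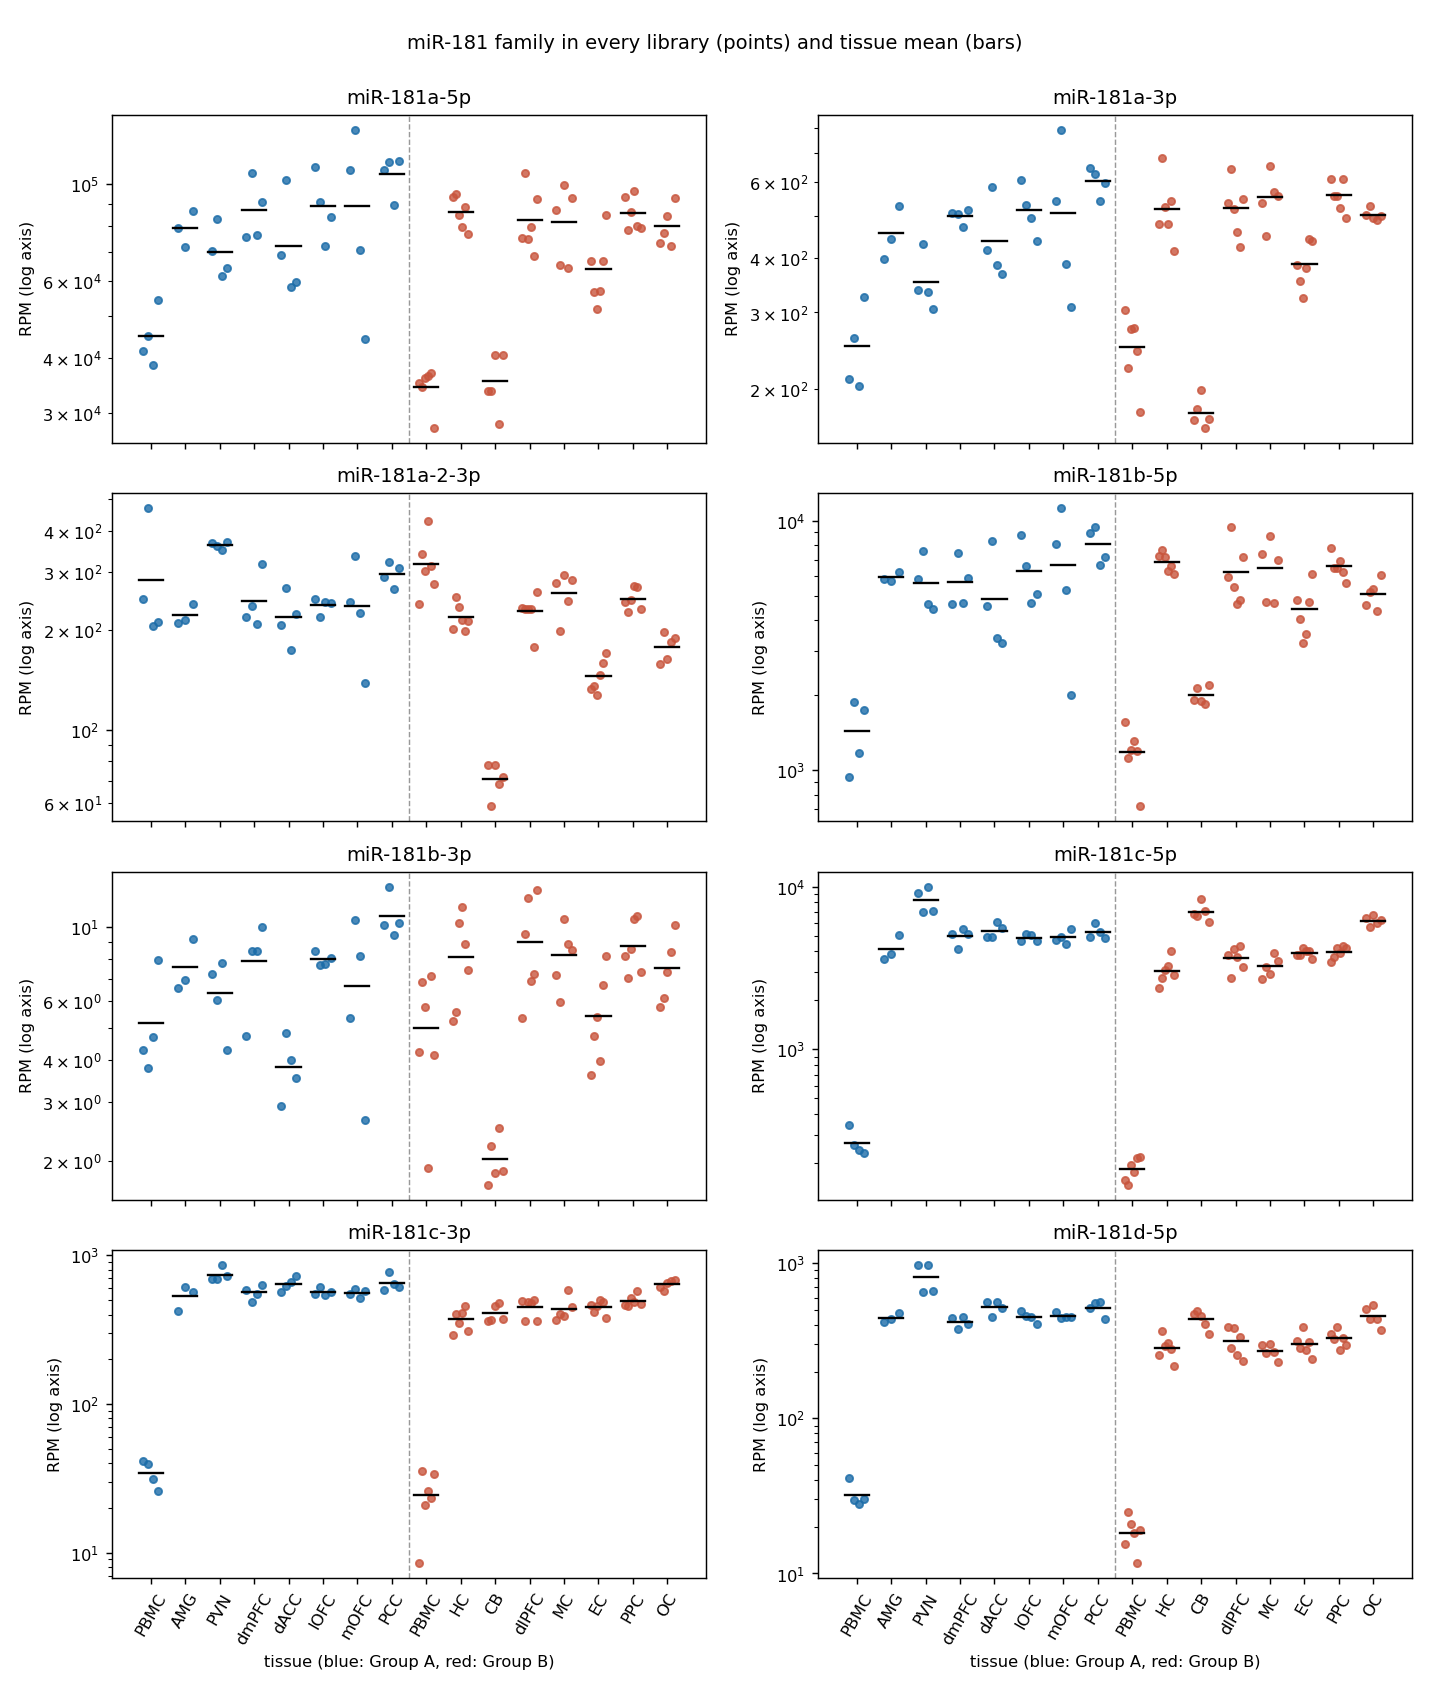
RPM (log axis) of the 8 members in every library (points) and the mean of each tissue (bars), with Group A in blue and Group B in red. miR-181c-5p, miR-181c-3p and miR-181d-5p are lowest in PBMC in both groups, and miR-181a and miR-181b members are low in CB.

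PBMC were then compared with the mean of each animal's own brain regions. The guide strands of miR-181c and miR-181d stood apart from those of miR-181a. miR-181c-5p and its partners were about 16 to 23 times lower in blood cells than in brain, miR-181b-5p more than 4 times lower, and miR-181a-5p about 2 times lower, while miR-181a-2-3p showed no lower level in blood that passed the test. In Group A 6 of the 8 members were lower in PBMC and none higher at an adjusted p under 0.05 (limma, Benjamini-Hochberg over 362 miRNAs), against 89.0% of all 362 called in either direction, 60.8% lower and 28.2% higher. In Group B 6 were lower and 1 higher, against 92.0% called, 61.0% lower and 30.9% higher. With so many miRNAs called, the count of members is near the background and the sizes carry the comparison. The median log2 difference over the 8 members was -1.53 for Group A and -1.67 for Group B, beside -1.60 and -1.41 over all 362 miRNAs. The authors kept these miRNAs by their reads in brain (10 reads in 80% of brain samples), not in PBMC. The median and the shares over all miRNAs can therefore lean towards lower in PBMC and are no neutral background. How far they lean was not tested. The share of higher among all calls was 31.7% and 33.6%, and 39.4 to 47.8% and 36.9 to 49.2% when libraries were scaled in other ways.

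For miR-181c-5p, PBMC of A1, A2, A3 and A4 held 343, 259, 239 and 230.0 RPM, and the means of their brain regions were 5271, 5100, 5909 and 5450 RPM. In Group B its PBMC level was lowest in B2 at 147 RPM, had a median of 186 RPM and was highest in B6 at 218 RPM, against brain means of 3628 to 4877 RPM. No PBMC library reached the lowest brain library of its animal. On the log2(RPM + 1) scale the differences of Groups A and B were -4.35 ± 0.17 and -4.54 ± 0.11 (limma, ± SE, adjusted p = 1.7e-06 and 1.6e-08, lower in 4 of 4 and 6 of 6 animals), or 20.4-fold and 23.3-fold lower. It ranged from -4.49 to -3.54 and from -4.62 to -3.98 under the other settings, each of them called.

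miR-181c-3p, the other strand of that hairpin, stood at 41.4, 39.8, 31.1 and 26.1 RPM in PBMC of A1 to A4, against brain means of 563 to 640.0 RPM. In Group B PBMC it was 8.47 RPM in B1, a level resting on 6 reads, and 20.8 to 35.4 RPM in the other 5 animals, against 391 to 538 RPM in brain. The groups of libraries did not overlap, and the differences were -4.13 ± 0.19 and -4.29 ± 0.26 (limma log2 difference ± SE, adjusted p = 2.8e-06 and 1.7e-06). miR-181d-5p, the guide strand made next to miR-181c, stood at 41.0, 29.7, 28.1 and 30.0 RPM in PBMC of A1 to A4 and at 481 to 562 RPM in their brains. In Group B its PBMC level had a low of 11.6 RPM in B5, a median of 18.6 RPM and a high of 25.1 RPM in B2, against 262 to 398 RPM in brain. Its differences were -3.99 ± 0.15 and -4.15 ± 0.16 (limma log2 difference ± SE, adjusted p = 1.6e-06 and 1.3e-07), lower in every animal. These PBMC levels rest on 11 to 23 reads in Group B and on 47 to 201 reads in Group A.

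miR-181b-5p took a middle place. PBMC of A1 to A4 held 941, 1884, 1179 and 1747 RPM, against brain means of 6679, 8054, 5086 and 4642 RPM. In Group B its PBMC levels ran from 717 RPM in B6 over a median of 1204 RPM to 1562 RPM in B1, and its brain means from 4606 to 6246 RPM. Each PBMC library lay below every brain library of the same animal. The differences of Groups A and B were -2.11 ± 0.25 and -2.23 ± 0.17 (limma log2 difference ± SE, adjusted p = 0.00024 and 6.5e-06), 4.32-fold and 4.69-fold lower, and passed the test under every other setting. Its partner strand miR-181b-3p differed by -0.46 ± 0.23 and -0.50 ± 0.21, which missed the threshold (adjusted p = 0.099 and 0.051, limma). Its sign turned under quantile normalization in both groups and under each other scaling in Group A (0.16 to 2.09).

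miR-181a-5p was the most even between blood and brain among the guide strands. It stood at 41588, 44994, 38466 and 54228 RPM in PBMC of A1 to A4, against brain means of 88278, 99756, 73490 and 75889 RPM. In Group B, PBMC had a low of 27683 RPM in B6, a median of 35531 RPM and a high of 37001 RPM in B5, and brain means ran from 69812 to 79620 RPM. PBMC lay below the brain mean in all 10 animals, but above the lowest brain library in 1 animal of Group A, where that library was the mOFC of A4, and in 3 of Group B, where it was the CB. The log2 difference was -0.91 ± 0.17 and -1.12 ± 0.11 (limma, ± SE, adjusted p = 0.0024 and 3e-05), 1.88-fold and 2.17-fold lower. These values lie above the median of all miRNAs, which were kept by their reads in brain, by 0.69 and 0.29 on the log2 scale. Leaving out the mOFC of A4 kept all 6 calls of Group A. When libraries were scaled by the median of ratios, which moved the median of all miRNAs by 0.75 (Group A) and 0.27 (Group B), the differences were -0.20 (adjusted p = 0.29) and -0.85 (adjusted p = 0.00028, both limma), so that the call held only in Group B.

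The strands from the separate miR-181a hairpins parted. miR-181a-3p stood at 211, 262, 203 and 325 RPM in PBMC of A1 to A4 and at 423 to 559.8 RPM in their brain means, and was lower in PBMC by log2 differences of -0.96 ± 0.19 and -0.91 ± 0.14 in the respective groups (limma, ± SE, adjusted p = 0.0034 and 0.00034). Under median of ratios the Group A value was -0.25 (adjusted p = 0.23, limma). miR-181a-2-3p stood at 248, 469, 206 and 212 RPM in PBMC of A1 to A4, with A2 above the rest, and at 245 to 280.2 RPM in their brain means, a log2 difference of 0.03 ± 0.22 (adjusted p = 0.90, limma). In Group B it was higher in PBMC in 6 of 6 animals, from 240.1 RPM in B1 over a median of 308 RPM to 429 RPM in B4, against 187 to 207 RPM in brain, a log2 difference of 0.67 ± 0.13 (limma, ± SE, adjusted p = 0.0016). The brain mean includes the low CB, and single brain libraries of Group B reached 294 RPM in the MC. Under median of ratios the Group A difference was 0.79 and passed the test (adjusted p = 0.022, limma). Over the 14 alternatives that difference ran from -0.21 to 0.86 and was called higher in 4, median of ratios among them.

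The size of the blood-brain difference was compared between the groups directly. For none of the 8 members did the gap between the groups pass the test (limma on the differences within animals, adjusted p = 0.11 to 0.94), against 10.2% of all miRNAs called, 9.12% lower and 1.1% higher in Group A. At an unadjusted p under 0.05 there was 1 member, miR-181a-2-3p, whose value of Group A minus Group B was -0.64 ± 0.25 on the log2 scale (limma, p = 0.025). Without A2 this value was -0.88 and passed (adjusted p = 0.032, limma).

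**Figure D2:**
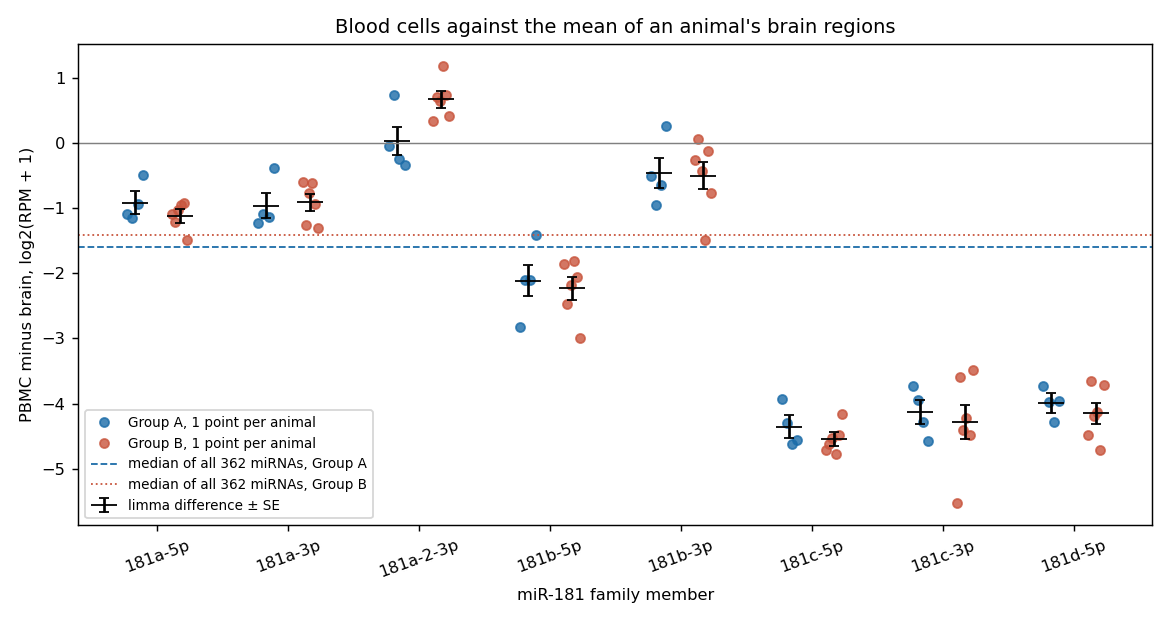
Difference between PBMC and the mean of the brain regions on the log2(RPM + 1) scale, with 1 point per animal, the limma difference ± SE in black, and the median of all 362 miRNAs as lines. miR-181c and miR-181d members lie near -4, far below the median of -1.60 and -1.41, and miR-181a members lie above it. The 362 miRNAs were kept by their reads in brain, so this median can lean towards lower in PBMC.

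Within the brain, 7 regions were each compared with the mean of the other regions of the same animals. The PVN was left out of the reference for the other regions of Group A and the CB out of that for Group B. In CB and EC all 5 miR-181a and miR-181b members were lower together. In CB the guide strands of miR-181c and miR-181d were higher at the same time. OC had more miR-181c and miR-181d with no call for miR-181a-5p, and EC less miR-181a and miR-181b with no call for miR-181c or miR-181d. Scaling mattered here: the share of higher among all calls was 26.9% in CB, 72.8% in EC, 15.2% in OC, 84.9% in PVN and 11.2% in PCC, and in the same order 46.0 to 51.7%, 47.0 to 48.3%, 47.1 to 52.9%, 43.6 to 60.6% and 22.2 to 48.9% with the other scalings.

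In the CB 6 members were lower and 2 higher, against 85.1% of miRNAs called, 62.2% lower and 22.9% higher. The median log2 difference of all miRNAs was -0.56, so that values are read against it. miR-181a-5p stood at 33664, 33691, 40635, 28309 and 40699 RPM in CB of B1, B3, B4, B5 and B6, below every other brain library of Group B. It was lower than in the other regions by a log2 difference of -1.19 ± 0.09 (limma, ± SE, adjusted p = 6.8e-06), and its mean of 35399 ± 5285 RPM (SD, n = 5) was close to that of PBMC of the same group, 34434 ± 3442 RPM (SD, n = 6). miR-181b-5p stood at 1850 to 2206 RPM in CB against 3239 RPM or more in every other brain library of the group, a difference of -1.55 ± 0.08 (limma, ± SE, adjusted p = 5.1e-07). miR-181a-3p, miR-181a-2-3p and miR-181b-3p had differences of -1.50, -1.59 and -1.59 on the same scale and were called. All 5 remained called under every other setting, with miR-181a-5p at -0.71 under median of ratios.

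miR-181c-5p in CB stood at 6754, 6579, 8359, 7089 and 6095 RPM in B1, B3, B4, B5 and B6. Its mean of 6975 ± 853 RPM (SD, n = 5) led the regions of Group B, followed by OC with 6182 ± 409 RPM (SD, n = 5), from which it did not differ beyond the spread of the differences within animals. It was higher than in the other regions by 0.80 ± 0.08 (limma log2 difference ± SE, adjusted p = 3.2e-05), and miR-181d-5p by 0.44 ± 0.07 (adjusted p = 0.00058), in 5 of 5 animals each. The partner strand miR-181c-3p did not follow, at 365 to 478 RPM in CB and a difference of -0.22 ± 0.08 (limma, adjusted p = 0.028). That call was lost without B1, B3 or B5 (-0.20, -0.18 and -0.23) and its sign turned when libraries were rescaled, to 0.26 under median of ratios. The share of the 3p arm among miR-181c reads was 5.54 ± 0.505% in CB (SD, n = 5) against 9.38 to 11.9% in the means of the other regions of the group. Red cell miRNAs summed to 3541 to 5360 RPM in CB and 662 to 2646 RPM in the other regions of Group B, and oligodendrocyte miRNAs (miR-219a-2-3p, miR-219a-5p and miR-338-3p) to 2807 to 3515 RPM against 3652 to 12509 RPM. The red cell sum was higher in CB through miR-486-5p alone, with a mean of 4377 RPM against 945 to 1319 RPM, while the means of miR-451a (222 against 245 to 384 RPM), miR-144-3p (27.1 against 31.9 to 48.5 RPM) and miR-144-5p (10.1 against 16.1 to 23.2 RPM) were lower there. Their part in the CB result was not tested. In bulk tissue, fewer cells of a type and less of a miRNA per cell cannot be told apart.

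In the PVN 4 members were higher and 2 lower, against 69.6% called, 59.1% higher and 10.5% lower, with a median of 0.51 over all miRNAs. miR-181c-5p stood at 9124, 6933, 9992 and 7071 RPM in PVN of A1 to A4, above every other brain library of the group, the highest of which held 6100 RPM. It was higher by 0.73 ± 0.12, and miR-181d-5p by 0.77 ± 0.12 (limma log2 difference ± SE, adjusted p = 0.0016 and 0.0010). Both lie only 0.22 and 0.26 above the median of all miRNAs, and under median of ratios they were 0.18 (adjusted p = 0.22) and 0.23 (adjusted p = 0.11), so these calls depend on the scaling. miR-181a-3p stood at 338, 433, 335 and 306 RPM in PVN of A1 to A4 and was lower by -0.52 ± 0.09 (limma, adjusted p = 0.0019). It was the only one of the 6 that was called under every other setting, from -1.39 to -0.48. miR-181a-2-3p was higher by 0.57 ± 0.09 (limma, adjusted p = 0.0012) and stood at 352 to 371 RPM, but its difference was 0.02 under median of ratios and -0.29 under quantile normalization.

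The lower level of miR-181a-5p in PVN, -0.31 ± 0.09 (limma, adjusted p = 0.016), was lost without A1 or A4 (-0.29 and -0.32). Over the 14 alternatives it ran from -0.88 to 0.015, and 10 of them called it lower. The higher level of miR-181c-3p, 0.33 ± 0.11 (adjusted p = 0.027), was lost without A1, A3 or A4 (0.32, 0.25 and 0.36), and its sign turned in both count tests. miR-181b-5p and miR-181b-3p had differences of -0.14 and -0.22 (adjusted p = 0.21 and 0.22, limma), and -0.70 each under median of ratios (adjusted p = 0.00053 and 0.0049). Leaving out the mOFC of A4 kept all 6 calls of the PVN. The neuronal list was lower in the PVN, at 32058 to 42430 RPM against 44974 to 67831 RPM in the other regions. Red cell miRNAs summed to 2039 to 3118 RPM in PVN and 838 to 1677 RPM in the other regions of Group A, and leukocyte miRNAs to 558 to 841 RPM and 242 to 612 RPM. The excess of the red cell sum lay in miR-486-5p, with a mean of 2134 RPM against 746 to 1011 RPM, while miR-451a at 290.0 RPM and miR-144-3p at 39.4 RPM lay within the means of the other regions, 182 to 344 and 26.4 to 40.7 RPM. Their part in these differences was not tested.

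OC, the primary visual cortex, showed 3 members higher and 1 lower, against 61.6% called, 9.39% higher and 52.2% lower. miR-181c-5p stood at 6424, 5608, 6666, 5973 and 6240.3 RPM in OC of B1, B2, B3, B4 and B5, against means of 3051 to 3957 RPM in the 5 remaining regions outside the CB. The OC libraries did not overlap with those regions, whose highest library held 4334 RPM. The difference was 0.78 ± 0.08 (limma log2 difference ± SE, adjusted p = 0.00013), with 0.51 ± 0.07 for miR-181c-3p and 0.54 ± 0.08 for miR-181d-5p (adjusted p = 0.00067 and 0.00092), each in 5 of 5 animals. All 3 held under every other setting. Both strands of miR-181c were thus called higher in OC, while in CB only the 5p strand was; this contrast between the regions was not tested. miR-181a-5p was at 72120 to 92938 RPM in OC, a difference of 0.01 ± 0.09 (adjusted p = 0.91, limma). miR-181a-2-3p was lower by -0.28 ± 0.09 (adjusted p = 0.026), a call lost without B1, B3 or B4 (-0.23, -0.23 and -0.29) and under rescaling, where it was -0.04 with median of ratios.

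In EC 5 members were lower and none higher, against 49.7% called, 13.5% lower and 36.2% higher, and the 5 were the miR-181a and miR-181b members. miR-181a-5p ran from 51886 RPM in B3 over a median of 61790.3 RPM to 84979 RPM in B6, and differed by -0.40 ± 0.10 (limma, ± SE, adjusted p = 0.0089, lower in 6 of 6 animals). miR-181b-5p differed by -0.53 ± 0.12, miR-181a-2-3p by -0.66 ± 0.09, miR-181a-3p by -0.45 ± 0.10 and miR-181b-3p by -0.58 ± 0.12 (adjusted p = 0.0043, 0.00021, 0.0034 and 0.0023, limma). These calls held under every other setting, save that of miR-181a-5p under quantile normalization (-0.14, adjusted p = 0.14). The 3 miR-181c and miR-181d members differed by -0.11 to -0.02 and were not called, but were called lower under median of ratios (-0.31 to -0.22).

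In HC 2 members were lower, miR-181c-5p by -0.45 ± 0.10 and miR-181c-3p by -0.41 ± 0.10 (limma log2 difference ± SE, adjusted p = 0.015 and 0.019), against 16.9% called, 11.9% lower and 4.97% higher. miR-181c-5p ran from 2370 RPM in B1 over a median of 2958 RPM to 4043 RPM in B5 and was below the mean of the other regions in 6 of 6 animals. Those regions include OC, where miR-181c-5p averaged 6182 RPM, and HC was not tested with OC left out. The HC mean of 3051 RPM did not differ from that of MC, 3233 RPM, beyond the spread of the differences within animals (MC higher in 3 of 5). Neither call held without B1 (-0.39 and -0.35) or B3 (-0.44 and -0.39), and that of miR-181c-3p also not without B4 (-0.42). miR-181a-5p had its highest mean of Group B in HC, 86333 ± 7242 RPM (SD, n = 6), which did not differ from PPC, next in order, beyond the spread of the differences within animals.

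In PCC 3 members were higher, against 24.6% called, 2.76% higher and 21.8% lower. These were miR-181b-3p by 0.61 ± 0.11, miR-181b-5p by 0.51 ± 0.11 and miR-181a-2-3p by 0.35 ± 0.08 (limma log2 difference ± SE, adjusted p = 0.015, 0.026 and 0.027). miR-181b-5p stood at 8958, 9439, 6648 and 7172 RPM in PCC of A1 to A4, with means of 4868 to 6657 RPM in the other regions, and the libraries overlapped. miR-181a-5p and miR-181a-3p had like differences of 0.36 and 0.33 that missed the threshold (adjusted p = 0.068 and 0.062, limma). The 3 calls depend on single animals: none remained without A1 or A4, 1 without A3 and 2 without A2, while leaving out the mOFC of A4 kept all 3. For miR-181b-5p the value without A1, A3 and A4 was 0.51, 0.52 and 0.40, and for miR-181b-3p 0.56 without A1 and 0.58 without A4. miR-181a-2-3p was lost without any of the 4 animals, at 0.33 to 0.38. The calls also depend on the method. edgeR called none of the 3 (0.81, 0.62 and 0.47 for miR-181b-3p, miR-181b-5p and miR-181a-2-3p), and DESeq2 called only miR-181b-3p of them (0.80, 0.61 and 0.46), while both called miR-181c-3p (0.30 and 0.29) and miR-181d-5p (0.29 and 0.28), which limma did not. With quantile normalization miR-181b-5p was not called (0.50). In AMG none of the 8 members was called by limma and none had an unadjusted p under 0.05, with values of -0.29 to -0.01, against 0.0% of all miRNAs called and 39 of 362 at an unadjusted p under 0.05. edgeR called 1 member and DESeq2 3 there, of 53 and 82 miRNAs in all. Both treat regions of an animal as replicates.

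**Figure D3:**
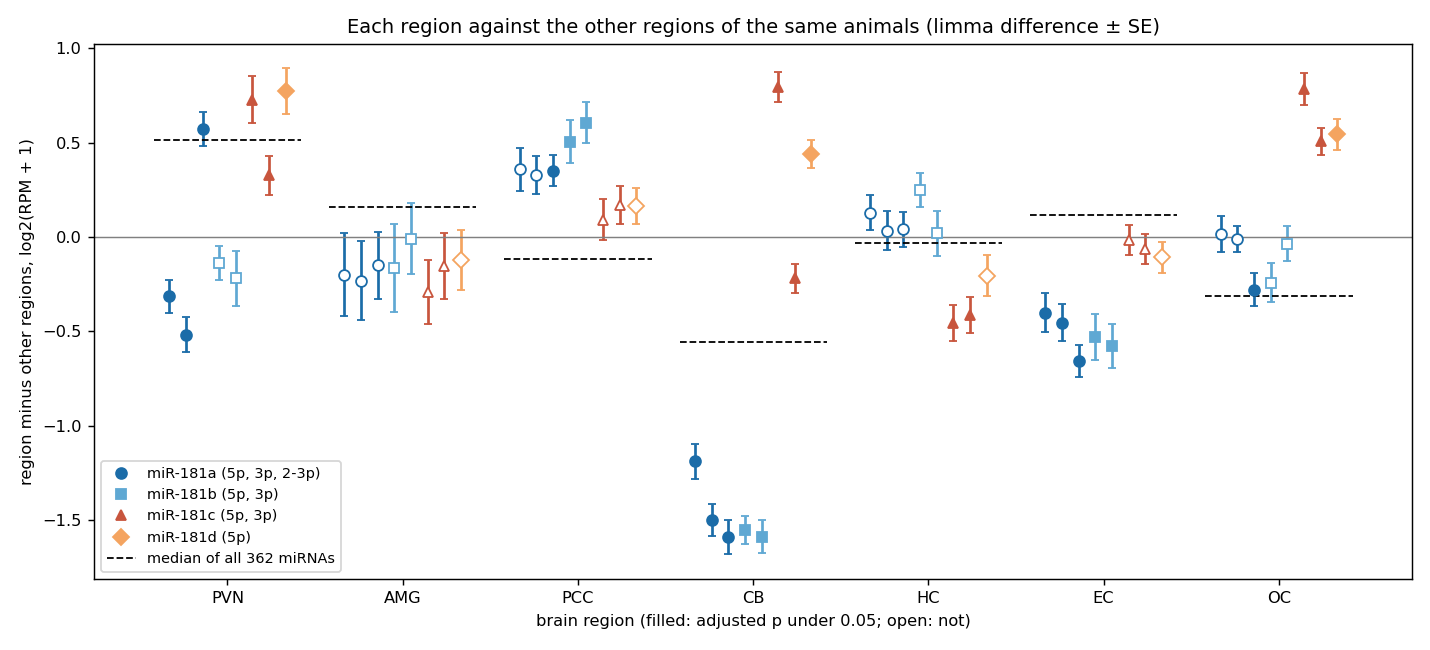
Difference of each region from the other regions of the same animals on the log2(RPM + 1) scale (limma ± SE) for the 8 members, filled where the adjusted p was under 0.05, with the median of all 362 miRNAs as a dashed line. In CB the miR-181a and miR-181b members lie between -1.59 and -1.19 while miR-181c-5p is at 0.80, and in OC the 3 miR-181c and miR-181d members lie between 0.51 and 0.78.

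A ratio between members within a single library does not depend on how that library is scaled. For the tests 1 RPM was added to each level and brain levels were first averaged over libraries, so some dependence remains. Exact sign-flip tests over animals (two-sided) were run for 6 ratios in 5 contrasts, 30 in all, with Benjamini-Hochberg adjustment over them. With all 10 animals the smallest p that such a test can give is 0.0020, with the 6 of Group B 0.031, with the 5 CB animals 0.063 and with 4 animals 0.13, so that of these contrasts only the one over all 10 animals passed after adjustment in any ratio. Over all 10 animals, which pools both groups and their different brain regions, 5 of the 6 ratios differed between PBMC and brain.

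miR-181a-5p was 178-fold as abundant as miR-181c-5p in PBMC and 16.5-fold in brain, a log2 difference of 3.43 ± 0.43 (SD, n = 10, exact p = 0.0020, adjusted p = 0.015). It was 30.6-fold as abundant as miR-181b-5p in PBMC and 13.8-fold in brain, a difference of 1.15 ± 0.30 (SD, n = 10, exact p = 0.0020, adjusted p = 0.015). Both were higher in 10 of 10 animals, and by like amounts in Group A (3.44 and 1.20) and Group B (3.43 and 1.11). miR-181a-5p over both of its 3p strands was lower in PBMC in 10 of 10 animals, 69.6-fold against 113-fold (exact p = 0.0020, adjusted p = 0.015). miR-181c-5p over miR-181d-5p was 9.05-fold in PBMC and 11.8-fold in brain (lower in 9 of 10 animals, exact p = 0.0059, adjusted p = 0.035), but this call was lost without any 1 of A2, A3, A4, B1, B2, B3, B4 and B6, with a difference of -0.40 to -0.32. The strands of miR-181c, 5p over 3p, showed no difference that passed the test (7.73-fold and 9.16-fold, difference -0.24 ± 0.49, SD, n = 10, exact p = 0.15).

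The 3p strands of the separate miR-181a hairpins shifted against each other. miR-181a-3p over miR-181a-2-3p was 0.839-fold in PBMC and 2.14-fold in brain, a log2 difference of -1.35 ± 0.59 (SD, n = 10, exact p = 0.0020, adjusted p = 0.015, lower in 10 of 10 animals). In PBMC of Group A the ratio was 0.558 to 1.53 and in PBMC of Group B 0.640 to 1.26. In every brain region other than the PVN its geometric mean was between 2.00 and 2.83. The PVN was the exception with 0.964 (0.824 to 1.20 over 4 animals). The lowest brain library of the other 6 regions of Group A stood at 1.636. The difference of PVN from the other regions was -1.09 ± 0.17 (SD, n = 4, lower in 4 of 4 animals, exact sign-flip p = 0.13, the smallest 4 animals allow). Leukocyte miRNAs summed to 558 to 841 RPM in PVN, 242 to 612 RPM in the other regions of Group A and 61283 RPM or more in PBMC. Their part in the ratio of the PVN was not tested. In CB the ratio was 2.47-fold against 2.32-fold elsewhere (n = 5, exact p = 0.44).

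miR-181a-5p over miR-181c-5p was also the ratio that varied most among brain regions. Its geometric mean was 5.06 in CB and 8.48 in PVN, followed by 12.9 in OC, and it was 28.6 in HC, the highest of the brain. Compared with the other regions of the same animals it was lower in 5 of 5 animals in CB (log2 difference -1.99 ± 0.12, SD, exact p = 0.063, the smallest possible) and in 4 of 4 in PVN (-1.04 ± 0.30, SD, exact p = 0.13, the smallest possible). As a description without a test, it was lower in 5 of 5 animals in OC (-0.77 ± 0.33) and in 6 of 6 in EC (-0.39 ± 0.29), and higher in 6 of 6 in HC (0.58 ± 0.30, all SD). The references of EC and HC include OC, where the ratio was low. miR-181c-5p over miR-181c-3p was 17.1-fold in CB against 8.44-fold elsewhere in the same animals, higher in 5 of 5 (exact p = 0.063).

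**Figure D4:**
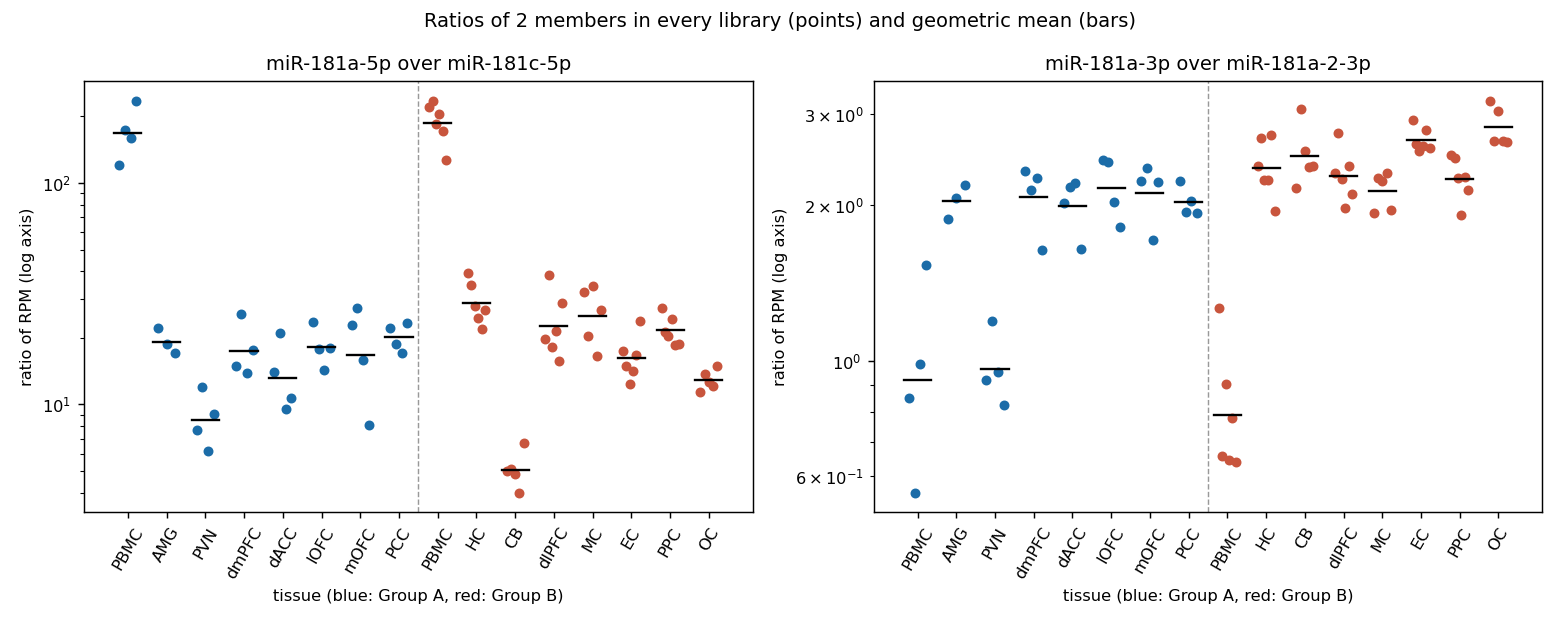
Ratio of miR-181a-5p to miR-181c-5p (left) and of miR-181a-3p to miR-181a-2-3p (right) in every library (points, log axis), with the geometric mean of each tissue as a bar. The left ratio is above 121 in all PBMC libraries and lowest in CB, and the right ratio is near 1 in PBMC and PVN and near or above 2 in the other tissues.

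Across the 14 brain regions, with the CB included, miR-181a and miR-181b members varied together, and miR-181c-5p varied with miR-181d-5p. Over the region means, centered within each group, Pearson's r between miR-181a-5p and miR-181a-3p, miR-181b-5p and miR-181b-3p was 0.99, 0.97 and 0.94, that with miR-181a-2-3p was 0.81, and that between miR-181c-5p and miR-181d-5p was 0.93 (n = 14 regions, as a description). miR-181a-5p and miR-181c-5p gave r = -0.64. miR-181c-3p was less clearly placed, with r = 0.60 with miR-181c-5p, 0.70 with miR-181d-5p and 0.07 to 0.28 with the 5 miR-181a and miR-181b members. The region means of a group share animals and are not independent. The CB was the lowest region for each of the 5 miR-181a and miR-181b members, and the highest for miR-181c-5p. For miR-181b-5p its centered value was -1.33, against -0.32 to 0.44 in the other regions. In the PVN miR-181a-5p and miR-181a-2-3p went opposite ways, at -0.26 and 0.50. The r over regions can therefore rest largely on the CB, and none was computed without it. By a rule that took the 3 miRNAs outside the family with the highest r, miR-181a-5p was most like miR-219a-5p (0.97), miR-584-5p (0.95) and miR-219a-2-3p (0.95), and miR-181c-5p was most like miR-30a-5p (0.85), miR-486-5p (0.84) and miR-1296-5p (0.83), each over 14 regions.

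miR-219a-5p and miR-219a-2-3p are miRNAs of oligodendrocytes, the cells that make myelin, and with miR-338-3p they form the oligodendrocyte list. In the mOFC this list summed to 4785, 6849, 3661 and 841 RPM in A1, A2, A3 and A4, while miR-181a-5p was at 107437, 132762, 70408 and 44266 RPM and miR-181b-5p at 8090, 11251, 5285 and 2003 RPM in the same order. A2 was highest and A4 lowest in all 3 measures. miR-181c-5p, at 4699, 4871, 4441 and 5500 RPM, did not take that order. Other regions did not all keep it either. In dACC A2 was again highest in all 3 measures. In PCC the list was highest in A1 at 6439 RPM but miR-181a-5p in A4 at 112524 RPM. In dmPFC the list was lowest in A4 at 3855 RPM but miR-181a-5p in A1 at 75503 RPM. Over the brain libraries, on the log2 scale and after removing the mean of each region, r between the list and miR-181b-5p was 0.93 in Group A (n = 27 libraries) and 0.80 in Group B (n = 39), and with miR-181a-5p 0.89 and 0.66, as descriptions, since libraries share animals. The other miR-181a and miR-181b members gave 0.66 to 0.89 in Group A and less in Group B, with 0.52 for miR-181a-3p, 0.45 for miR-181a-2-3p and 0.20 for miR-181b-3p. With miR-181c-5p it was -0.30 and -0.67, with miR-181c-3p -0.18 and -0.68, and with miR-181d-5p -0.07 and -0.16. These r were not computed without the mOFC of A4. In CB and EC, where miR-181a and miR-181b were lower, the list had medians of 2933 and 5021 RPM against 6788 to 9214 RPM in the other regions of Group B, and in PCC its median of 5181 RPM was the highest of Group A. Its part in the regional differences was not tested. In PBMC, where miR-181a-5p stayed abundant, the list summed to 38.1 to 88.8 RPM.

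**Figure D5:**
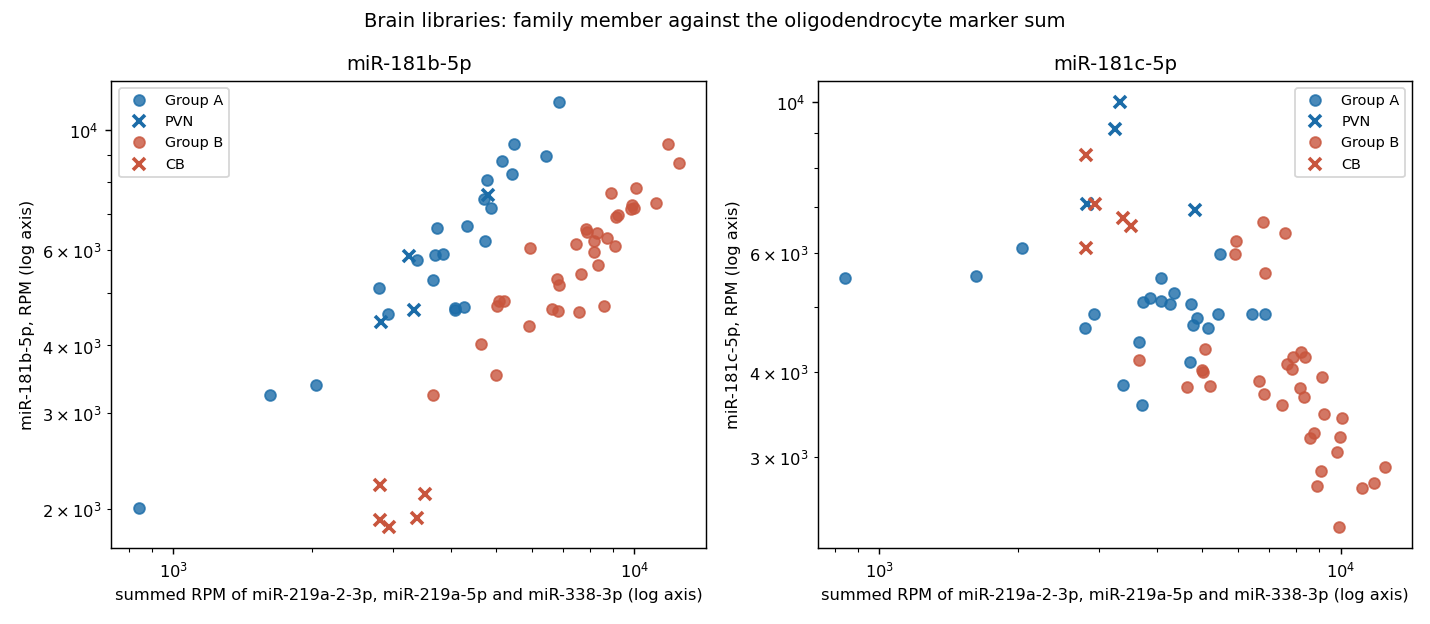
miR-181b-5p (left) and miR-181c-5p (right) in each brain library against the summed RPM of 3 oligodendrocyte miRNAs, both axes log, with PVN and CB as crosses. miR-181b-5p is high where the sum is high (r within regions 0.93 in Group A and 0.80 in Group B), whereas miR-181c-5p is not (r within regions -0.30 and -0.67).

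Finally, blood and brain levels were compared over animals. In Group B, PBMC RPM was correlated with the mean brain RPM (exact permutation test, adjusted over the 340 miRNAs with reads in PBMC). None of the 8 members passed at an adjusted p under 0.05, against 0.0% of all. With 6 animals the smallest p of this test is too large for a single miRNA to pass that adjustment on its own. The absence of adjusted calls therefore decides nothing. At an unadjusted two-sided p under 0.05 none of the 8 members passed, against 7.35% of all at that threshold. Pearson's r ran from -0.66 for miR-181a-5p to 0.41 for miR-181c-5p. For miR-181a-5p r was -0.66 (n = 6, exact p = 0.11, adjusted p = 0.70) and Spearman's rho -0.94 (exact p = 0.017), and r without the outer pair of animals B5 and B6 was -0.93. B6 had the lowest PBMC level, 27683 RPM, and the second highest brain mean, 77829 RPM. Without B6 r was -0.95 and without B2 -0.88 (n = 5, exact permutation p = 0.0083 for each, before adjustment, the smallest that 5 animals allow). Without B1, B3, B4 or B5 r was -0.66 to -0.59 (exact permutation p = 0.16 to 0.32). Over the regions that all 6 animals have, r of miR-181a-5p was -0.65 (exact permutation p = 0.094, before adjustment). For miR-181c-5p r was 0.41 and rho 0.26 (n = 6, exact p = 0.40 and 0.66), and r was 0.68 over those regions that all 6 animals have and 0.81 without B6. The brain means of B2, B4 and B6 lack the CB, MC and OC, in that order. In Group A, with 4 animals, no correlation was computed, and the animals ranked differently in PBMC and in brain for both miR-181a-5p and miR-181c-5p.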

How the data were processed

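Small RNA libraries of PBMC and 14 brain regions were used. The authors prepared them with the Illumina TruSeq small RNA kit, removed adapters, and mapped the reads to human miRBase v21 by means of mirDeep2 and bowtie, allowing 0 mismatches; tool versions are not given in the sources used here. They discarded libraries with fewer than 500000 mapped reads, then retained miRNAs reaching 10 reads in 80% of the brain samples. The deposited RPM values are relative to all mapped miRNA reads, with sequencing runs combined by the authors. The deposited count per miRNA is the authors' read total over all libraries. Column headers call the HC sample dentate gyrus, while the methods describe the whole hippocampus.

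Each library's depth was searched as a total at which RPM values up to 200.0 were whole multiples of 1 read (within 0.1 reads). They were so in 100% of cases, which the search itself ensures and which is no separate check. Recovered reads per miRNA came to at least 0.999957 times the deposited totals.

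PBMC or a region was compared with the mean RPM of the reference libraries of the same animal by limma 3.58.1 in R 4.3.3 on log2(RPM + 1). The animal was the block, and p-values were adjusted after Benjamini-Hochberg over 362 miRNAs at a threshold of 0.05. A fold change on this scale understates changes of low miRNAs. The labels name the animal of each library, which is where the pairing comes from. As a check, both values of an animal deviated together with r of 0.26 to 0.59 (Group A blood), -0.13 to 0.34 (Group B blood), -0.15 to 0.42 (AMG) and 0.13 to 0.86 (the other regions), over miRNAs with a mean above 50.0 RPM. Ratios used exact sign-flip tests and correlations exact permutation tests (Python 3.11.15, numpy 2.4.6, pandas 2.3.3, matplotlib 3.10.9). edgeR 4.0.16 and DESeq2 1.42.0 on the recovered whole reads were alternatives that take regions of an animal as replicates. Other alternatives were no block, pseudocounts of 0.1 and 10 RPM, miRNAs averaging 10 RPM or more, scaling by the median of ratios, quantile normalization, the mean of log2 values, and each animal left out. For ratios the mean over single libraries was also tried, and for correlations log2 values, ranks and the regions present in every animal. Leaving out the mOFC of A4 was added after seeing the data. Floors cover counting error only. The models were also run on simulated data with the same spread for all miRNAs, and for the count tests without differences between animals. These settings differ from the data, and the outcome is not used here as support.

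Named miRNAs were the 8 members, marker miRNAs, and for miR-181a-5p and miR-181c-5p the 3 most similar others by Pearson's r over regions. The members, comparisons and marker lists were chosen with earlier results of these data known. Of the columns with values 0 were left unused, and 3 columns held no values. No sequences are printed, as none were at hand.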

Additional observations from a re-analysis of the deposited data

Results flagged for a closer look

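Of 120 sets of 4 to 6 libraries (1 member in 1 tissue of 1 group), 5 held a library far from the others relative to the range of the set, where chance gives about 1 in 20. In PBMC of Group A, miR-181a-2-3p was highest in A2 at 469 RPM, with the next at 248 RPM, and miR-181d-5p was highest in A1 at 41.0 RPM, with the next at 30.0 RPM. In PBMC of Group B, miR-181a-5p was lowest in B6 at 27683 RPM, with the next at 34398 RPM. In the dlPFC miR-181a-2-3p was lowest in B5 at 179 RPM, with the next at 232 RPM. In the mOFC miR-181d-5p was highest in A1 at 488 RPM, with the next at 452 RPM, a narrow set as a whole. The library of A4 in mOFC, low in miR-181a and miR-181b, did not pass this criterion, since A3 also lay low.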

How the results depend on the processing

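Of 41 called differences of members, 26 kept their call and direction under every alternative and 15 did not. Scaling by the median of ratios, quantile normalization, edgeR and DESeq2 moved the median of all miRNAs by more than 0.1 on the log2 scale in every comparison they could be run for except HC. The cause of the following changes was not tested. Directions turned for miR-181c-3p in CB (0.26 with median of ratios, 0.13 quantile, 0.20 edgeR, 0.26 DESeq2) and in PVN (-0.22, -0.26, -0.10 and -0.21), for miR-181a-3p in OC with median of ratios (0.23), and with quantile normalization for miR-181b-3p in PBMC (2.09 in Group A, 1.84 in Group B) and OC (0.38), and for miR-181a-2-3p (-0.29) and miR-181a-5p (0.015) in PVN. The number of members called moved from 0 to 1 with edgeR and 3 with DESeq2 in AMG, from 2 to 0 with edgeR and 1 with DESeq2 in HC, and from 5 to 8 with median of ratios in EC. Without the animal as replicate block it was 1 in HC and 1 in PCC, where the pairing gave 2 and 3. The calls lost without the block were miR-181c-3p in HC and CB, miR-181a-5p in PVN, and miR-181a-2-3p and miR-181b-5p in PCC, and no other call of a member changed. With each animal left out in turn the count was 0 to 2 in PCC, 0 to 3 in HC and 0 to 1 for Group A against Group B. Over all miRNAs the calls in PCC numbered 89, and 15 to 77 with an animal left out, 33 with quantile normalization, 54 with median of ratios, 51 without the block, 45 with edgeR and 57 with DESeq2. In HC they numbered 61, and 16 to 62 with an animal left out and 31 without the block. In AMG, where limma called 0 miRNAs, it called 6 without A2. For Group A against Group B they numbered 37, and 17 and 106 at pseudocounts of 0.1 and 10 RPM and 57 with quantile normalization, and 20 without A3 and 21 without A1. Among the ratios, 5p over 3p of miR-181c was called at a pseudocount of 10 RPM (-0.59), and miR-181c-5p over miR-181d-5p was not at 0.1 RPM (-0.33). Depth limits miR-181b-3p, miR-181c-3p and miR-181d-5p most, with as few as 2, 6 and 11 reads in PBMC.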
